A study of Mus musculus with 3 samples.

Results

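Transcripts of 9 genes of transforming growth factor beta (TGF-β) signalling were followed across the cells of mouse lung, to see which cells carried the ligands, which the receptors and which the genes that respond. The genes were chosen by name and are the ligands Tgfb1, Tgfb2 and Tgfb3, the receptors Tgfbr1, Tgfbr2 and Tgfbr3, the inhibitor Smad7, and thrombospondin-1 (Thbs1) and fibronectin (Fn1). They are 9 of the 22954 genes in the tables, of which 21492 were above 0 in any cell, and all 9 were above 0 in each library. The lungs were taken from 3 wild-type (WT) female C57BL6/J mice 5 months after their thorax had received 13 Gy. In the group CONV the mouse was irradiated at a conventional dose rate, and the FLASH mouse at an ultra-high dose rate. The CONV AsiDNA mouse also had conventional irradiation and received AsiDNA, a short DNA that mimics a double-strand break, with 100 mg/kg given daily over the preceding 2 days and 200 mg/kg when irradiated. Unirradiated lungs were not analysed here, so all groups share the 13 Gy and no value below is a change from a healthy lung. Each group is 1 mouse. No test over mice was possible, and a difference between libraries is a difference between those 3 animals.

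TGF-β is secreted in a latent form, bound to its own propeptide and to a latent TGF-β binding protein, and is released by integrins, proteases or thrombospondin-1. The active dimer is bound by the type II receptor Tgfbr2, which recruits and phosphorylates the type I receptor Tgfbr1, and this pair phosphorylates Smad2 and Smad3. Tgfbr3, or betaglycan, is a co-receptor that presents ligand, above all TGF-β2, and Smad7 is induced by the signal and shuts it down at the receptor. In the lung the pathway is best known for driving fibroblasts to lay down matrix in fibrosis.

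The 19619 cells kept were placed in classes by fixed markers, cell by cell, and 18666 of them (95.14%) fell into 1 of 29 classes. A class is called by the cell type whose markers it carries. The level of a gene in a class is its summed adjusted counts, divided by all adjusted counts of the class and scaled to 1000000 (adjusted CPM). A share of cells is the percentage with the gene above 0, and its exact 95% Clopper-Pearson interval covers the sampling of cells in 1 lung, not the differences between mice. Values are given in the order CONV, CONV AsiDNA and FLASH throughout. The median total per cell was 3450, 3678 and 3621 adjusted counts. The deposited values had been adjusted by the authors, and some common genes are at 0 where the cell must use them. The mitochondrial gene mt-Co1 was at 0 in 22 of 81 profiles of a class in a library, so a 0 is reported only as listed at 0.

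Tgfb1 and Tgfb2 have unlike upstream sequences, shown here because their transcripts lay in different cells. The 250 bases before the start of Tgfb1 (chr7:25686752-25687001, plus strand) and of Tgfb2 (chr1:186705990-186706239, minus strand) were taken from RefSeq on GRCm38.p6 and are written 5′ to 3′. Capitals mark matches, on either strand, to the letters of 3 promoter motifs. The GC box was searched as GGGCGG, which reads CCGCCC when it lies on the opposite strand. The motif of a basal start site, named the TATA box, was searched as TATAAA. The E-box, which basic helix-loop-helix factors bind, was searched as CACGTG.
Tgfb1: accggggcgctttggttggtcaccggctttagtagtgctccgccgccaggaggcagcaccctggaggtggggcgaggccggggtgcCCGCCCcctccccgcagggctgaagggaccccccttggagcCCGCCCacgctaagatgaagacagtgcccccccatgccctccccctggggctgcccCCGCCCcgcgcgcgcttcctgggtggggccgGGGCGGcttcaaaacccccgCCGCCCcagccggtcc
Tgfb2: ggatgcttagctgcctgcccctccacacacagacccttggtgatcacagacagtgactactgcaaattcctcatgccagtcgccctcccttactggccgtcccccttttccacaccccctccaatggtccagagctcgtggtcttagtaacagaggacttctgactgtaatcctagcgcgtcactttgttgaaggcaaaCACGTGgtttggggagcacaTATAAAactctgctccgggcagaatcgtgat
The Tgfb1 sequence held the GC box letters 5 times, at 164, 123, 67, 36 and 16 bases before the start, and neither of the other motifs. Its GC content was 75.2%, against a median of 52.4% over 32851 mouse promoters. The Tgfb2 sequence held the TATA box letters 31 bases and the E-box letters 51 bases before the start and no GC box, at a GC content of 53.6%. Of all promoters, 32.7% held the GC box, 12.4% the TATA box and 6.02% the E-box letters in the same window. The matches describe the letters only and were not tied to any level below.

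Tgfb1 (chromosome 7, 25687002 to 25705077, plus strand, GRCm38) was the widely carried ligand. It was above 0 in 30.3%, 36.9% and 34.8% of all cells, against 3.08%, 3.83% and 3.89% for Tgfb2 and 2.62%, 2.59% and 2.44% for Tgfb3. Its highest class with at least 20 cells in every library was the patrolling monocyte-like cells, which carry Treml4 and Ace, at 425, 543 and 479.7 adjusted CPM. There 31 of 45, 202 of 256 and 269 of 352 cells were above 0. The alveolar macrophage-like cells followed. Those with the resident markers Ear1 and Krt79 had 324, 389.8 and 379 adjusted CPM and were above 0 in 85.1%, 92.9% and 87.5% of cells, and those with Spp1 and Gpnmb had 278, 301 and 291. The range of the patrolling cells did not overlap that of either, but by the mean per cell without scaling the cells with Ear1 and Krt79 were the highest class. Type 2 dendritic cell-like cells (217, 265 and 261) and interstitial macrophage-like cells (220.2, 234 and 195) had overlapping ranges. B cell-like cells had 117, 196 and 196, and T cell-like cells were lower still. Alveolar fibroblast-like, smooth muscle or pericyte-like, mesothelial-like, ciliated and club-like cells were listed at 0 in all libraries, and so was a small class of other fibroblasts. The mesenchyme and mesothelium together held 0.0939%, 0% and 0% of all Tgfb1.

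Macrophages and monocytes held 62.0%, 48.4% and 49.2% of the summed Tgfb1 while making up 23.7%, 20.1% and 19.2% of the cells. Lymphocytes, 42.7%, 41.6% and 40.8% of the cells, held 23.8%, 29.7% and 28.8%. Alveolar macrophages alone held 47.4% in CONV and 25.8% and 23.3% in the others, and their share of cells moved with that, at 16.0%, 9.56% and 7.71%. Their level did not, at 288, 356 and 365 adjusted CPM. This group pools classes whose shares of cells ran in opposite ways. The Ear1 and Krt79 class made up 2.10%, 5.82% and 5.60% of the cells, and the Spp1 and Gpnmb class 9.62%, 1.705% and 0.846%. Outside alveolar macrophages Tgfb1 was also lower in CONV in several groups. Lymphocytes had 91.3, 146 and 130 adjusted CPM, endothelium 98.4, 215 and 197, and dendritic cells and granulocytes 68.5, 139 and 123. Mesenchyme with mesothelium was highest in CONV, at 5.17, 0 and 0. The parts of cell numbers and of these levels in the larger alveolar macrophage share of the CONV sum were not tested.

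**Figure D1:**
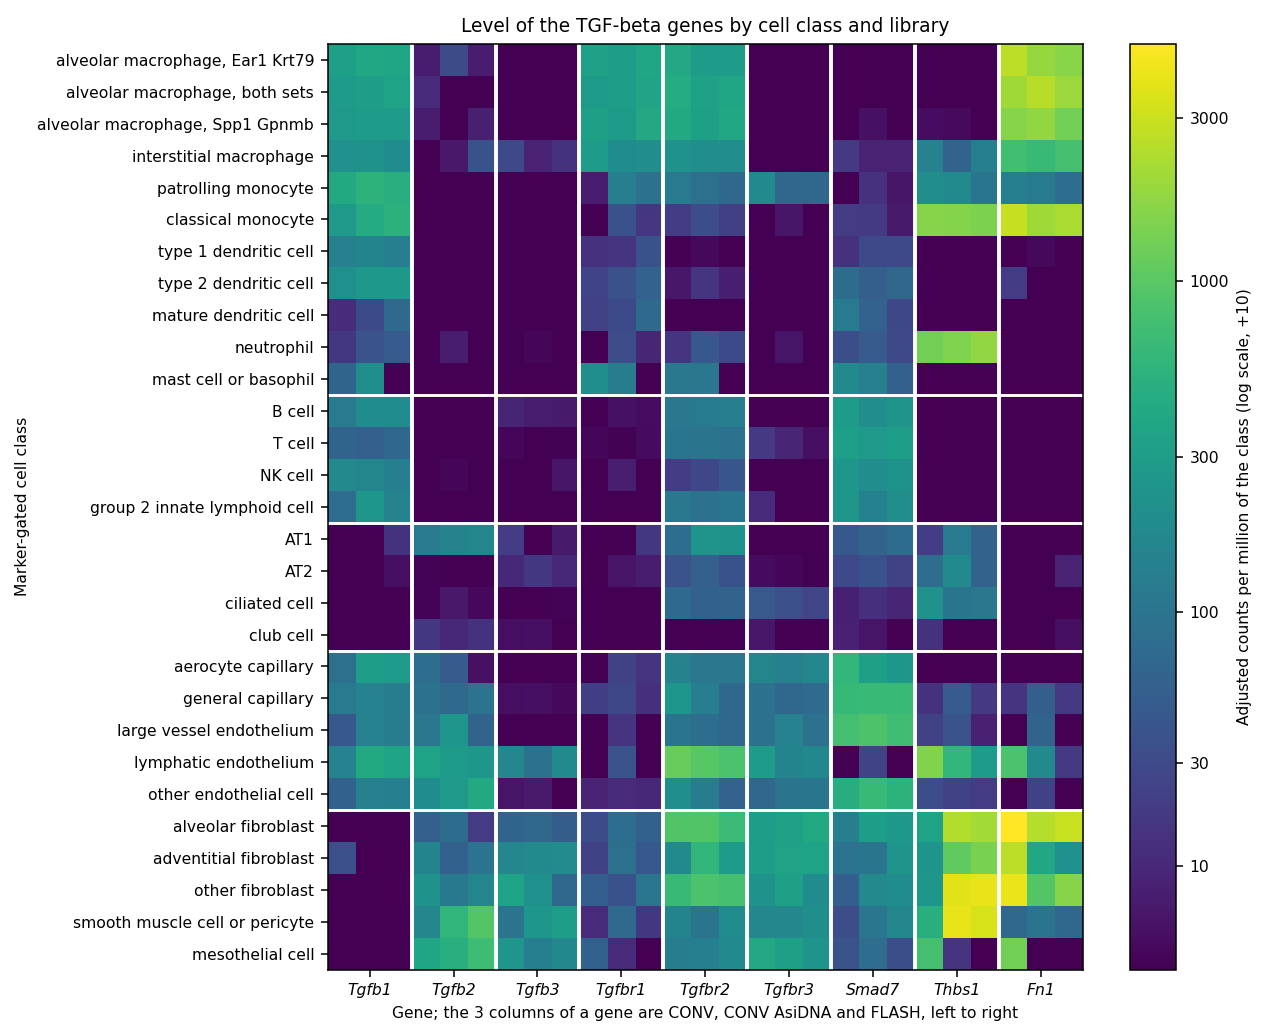
Level of each gene (colour, adjusted CPM on a log scale) in each of the 29 cell classes (rows), with the columns of a gene showing CONV, CONV AsiDNA and FLASH from left to right. Tgfb1 sits in blood-derived cells and endothelium and is dark in the mesenchyme, Tgfb2 and Tgfb3 are bright there, Tgfb2 in endothelium as well, and the classical monocyte, lymphatic, adventitial and other fibroblast rows hold under 20 cells in CONV.

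Tgfb2 (chromosome 1, 186622792 to 186705989, minus strand) lay mainly in structural cells. Smooth muscle or pericyte-like cells were its highest class, at 161, 586 and 931 adjusted CPM, with 19 of 45, 39 of 57 and 31 of 43 cells above 0. The CONV value lay below both others. Mesothelial-like cells, the lining of the pleura, had 382, 476 and 702, and these ranges overlap, so the order of these classes is not settled. Endothelial cells outside the named subtypes had 192, 274 and 421. AT1-like cells, the flat cells of the gas exchange surface, had 123, 149 and 161 and were above 0 in 27.1%, 34.4% and 32.2% of cells. T cell, B cell and patrolling monocyte-like cells were among the 9 classes listed at 0 throughout.

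In aerocyte-like cells, the Car4 and Ednrb capillary cells, Tgfb2 stood at 84.1, 49.9 and 3.13 adjusted CPM. It was above 0 in 11 of 54, 21 of 164 and 2 of 174 of them. The share of 1.15% in FLASH (0.140% to 4.09%) lay below the interval of CONV AsiDNA (8.10% to 18.9%) and of CONV (10.6% to 33.5%). General capillary-like cells showed no such order, with 20.4%, 14.7% and 19.3%. Interstitial macrophage-like cells ran the other way, listed at 0 in 429 CONV cells and above 0 in 1 of 426 and 9 of 324 cells. Endothelium held 46.0%, 31.4% and 29.9% of all Tgfb2, and mesenchyme with mesothelium held 28.7%, 44.1% and 49.1% from 2.10%, 3.18% and 4.13% of the cells.

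Tgfb3 (chromosome 12, 86056745 to 86079041, minus strand) was low, and shared with Tgfb2 the mesenchyme and mesothelium but little of the endothelium, which held 5.07%, 3.98% and 8.97% of all Tgfb3. Smooth muscle or pericyte-like cells had 99.9, 248 and 312 adjusted CPM, with 16 of 45, 30 of 57 and 21 of 43 cells above 0. CONV was again the lowest library. Mesothelial-like cells had 245, 135 and 173 with CONV the highest, and the ranges of these classes overlap. Alveolar fibroblast-like cells, the Col13a1 and Npnt cells of the alveolar wall, had 63.3, 71.7 and 52.5. Adventitial fibroblast-like cells, around vessels and airways, had 167, 184 and 192 from 19, 41 and 39 cells. Interstitial macrophage-like cells were above 0 in 44 of 429 cells in CONV (10.3%, 7.55% to 13.5%), against 15 of 426 (3.52%, 1.98% to 5.74%) and 13 of 324 (4.01%, 2.15% to 6.76%). The alveolar macrophage-like classes were listed at 0 throughout. Mesenchyme with mesothelium held 40.1%, 59.4% and 62.0% of all Tgfb3. Interstitial macrophage-like cells held 23.5%, 5.98% and 8.12%, the largest share of any class in CONV. B cell-like cells held 16.1%, 11.2% and 8.55% and AT2-like cells 6.91%, 11.2% and 8.12%.

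Few cells carried more than 1 ligand. At least 2 ligands were above 0 in 106 of 6371, 142 of 6981 and 115 of 6267 cells, and 65.8%, 58.7% and 60.8% of cells carried none above 0.

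**Figure D2:**
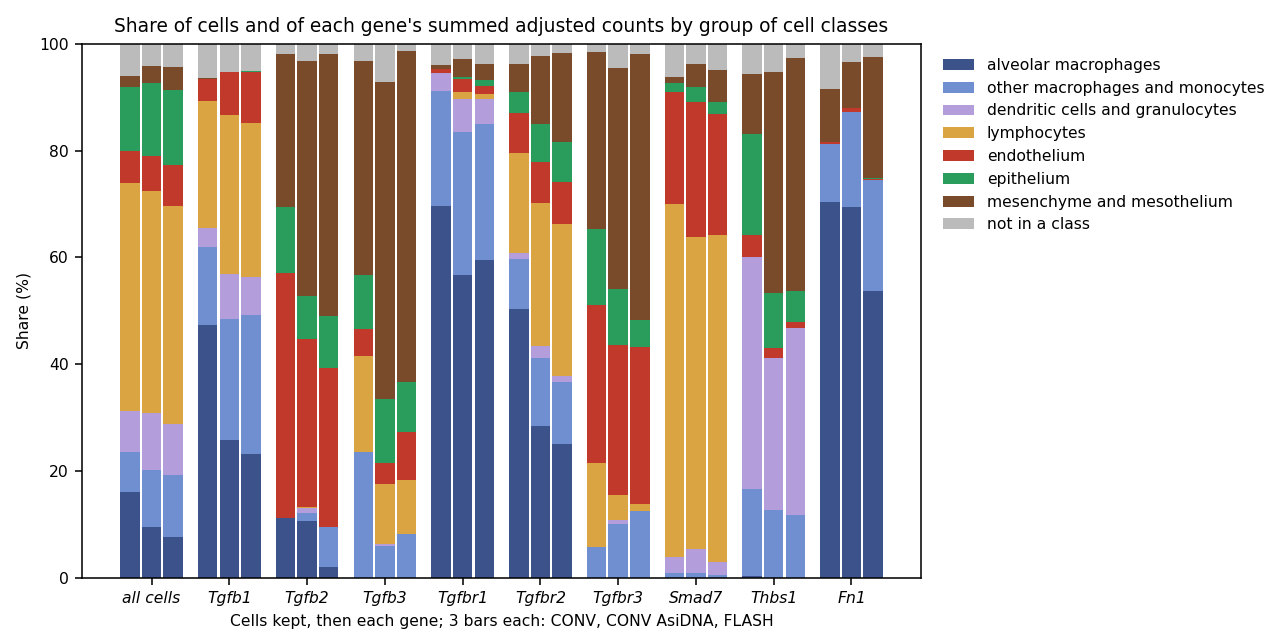
Share in percent of the cells (left) and of the summed adjusted counts of each gene (9 groups of bars) that lay in each group of cell classes, with bars for CONV, CONV AsiDNA and FLASH from left to right. Macrophages and monocytes hold 91.1%, 83.6% and 85.0% of Tgfbr1, lymphocytes hold 66.1%, 58.5% and 61.2% of Smad7, and the mesenchyme holds far more of Tgfb2, Tgfb3, Tgfbr3 and Thbs1 than its share of cells.

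Of the receptors, Tgfbr1 (chromosome 4, 47353222 to 47414931, plus strand) was mainly a macrophage transcript in these libraries. The 3 alveolar macrophage-like classes had the highest mean levels over the libraries, with overlapping ranges. Those with Ear1 and Krt79 had 342, 316 and 379.7 adjusted CPM, those with Spp1 and Gpnmb 333, 286 and 415, and those with both sets 287, 305 and 365. Between 73.1% and 84.8% of their cells were above 0. Interstitial macrophage-like cells had 297, 196 and 204, in CONV above the class with both sets. The log2 ratios of CONV to the others lay between -0.34 and 0.57 in these 4 classes. Alveolar fibroblast-like cells, by contrast, had 31.7, 83.0 and 58.3, with 4 of 37, 17 of 62 and 25 of 125 cells above 0, and the intervals overlap. Ciliated, club and group 2 innate lymphoid-like cells were listed at 0 throughout. Mast cell or basophil-like cells had 209.5 and 130.1 adjusted CPM in CONV and CONV AsiDNA and were listed at 0 in the 27 FLASH cells. Those 27 lay mainly in another cluster (cluster 46, 70.4%) than the 112 CONV cells (cluster 11, 95.5%), and its part in the difference was not tested.

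Tgfbr2 (chromosome 9, 116084293 to 116175360, minus strand), the receptor that binds the ligand first, was highest in alveolar fibroblast-like cells among the classes with at least 20 cells in every library. These had 918, 913 and 682 adjusted CPM, and 32 of 37, 57 of 62 and 110 of 125 cells were above 0. Lymphatic endothelial-like cells had 1148, 980 and 844 from only 11, 20 and 26 cells. Other fibroblasts, also a small class, held 0.82%, 1.88% and 1.48% of all Tgfbr2 from 0.188%, 0.258% and 0.223% of the cells. Among classes with at least 20 cells in every library, the alveolar macrophage-like cells came next, well apart from the alveolar fibroblast-like cells. The Ear1 and Krt79 class had 410.1, 289.6 and 296 and the Spp1 and Gpnmb class 428, 331 and 401. Mature dendritic cell-like and club-like cells were listed at 0.

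Tgfbr2 in general capillary-like cells, the Gpihbp1 cells, stood at 252, 133 and 72.1 adjusted CPM. The shares were 52.6% (45.6% to 59.5%), 35.0% (28.4% to 42.1%) and 19.8% (14.54% to 25.97%), and no interval overlapped another. The same order stood within the cluster that held most of these cells in every library (cluster 27), at 206, 124 and 66.3. It did not meet the rule used below for CONV, since the log2 ratio over CONV AsiDNA was 0.87. Other endothelial cells had 209, 128 and 60.2, but 59.4% of them lay in cluster 29 in CONV, while cluster 44 held the largest share in CONV AsiDNA (44.2%) and FLASH (59.2%). Over all cells of cluster 44 Tgfbr2 was 187, 156 and 83.7. Endothelium as a whole held 7.47%, 7.65% and 7.78% of all Tgfbr2.

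Tgfbr3 (chromosome 5, 107106570 to 107289629, minus strand) was highest in alveolar fibroblast-like cells (304, 336 and 427 adjusted CPM) and mesothelial-like cells (412, 329.8 and 236), whose ranges overlap. The libraries ran in opposite order in these classes, and neither order exceeded the intervals of the shares, 70.3%, 79.0% and 79.2% in the former and 76.2%, 65.9% and 63.2% in the latter. Adventitial fibroblast-like cells had 311, 344 and 351, smooth muscle or pericyte-like cells 167, 165 and 208, and aerocyte-like cells 158, 139.9 and 168. The alveolar and interstitial macrophage-like cells, so rich in Tgfbr1, were listed at 0 throughout. Mesenchyme with mesothelium held 33.1%, 41.3% and 49.9% of all Tgfbr3 and endothelium 29.6%, 28.1% and 29.4%.

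Both signalling receptors were found in the same cell mainly in macrophages. In the Ear1 and Krt79 class 67.9%, 64.3% and 65.0% of cells had Tgfbr1 and Tgfbr2 above 0 together. In the Spp1 and Gpnmb class the shares were 72.3%, 58.0% and 69.8%, and in the cells with both sets 74.6%, 70.4% and 77.2%. Interstitial macrophage-like cells had 28.2% (23.99% to 32.7%), 18.1% (14.54% to 22.1%) and 20.4% (16.1% to 25.2%), with CONV above CONV AsiDNA beyond the intervals. Alveolar fibroblast-like cells had 10.8%, 25.8% and 18.4%, limited by Tgfbr1. Ciliated, club and group 2 innate lymphoid-like cells held no cell with both above 0. A cell with transcripts of 1 receptor may carry both proteins, and a share rises with the adjusted counts in a cell, whose median was 5104, 4953 and 4981 in the Ear1 and Krt79 class against 4311, 4159.5 and 4025 in alveolar fibroblast-like cells.

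**Figure D3:**
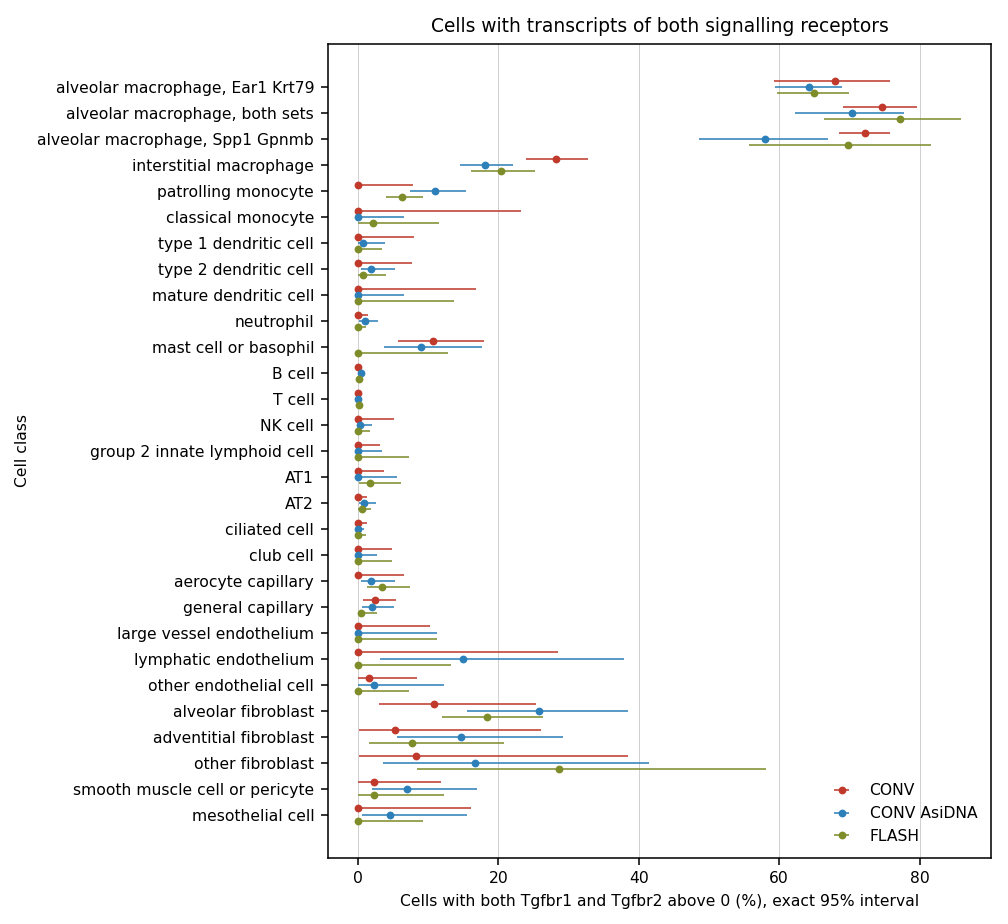
Share of cells in percent (horizontal axis) with both Tgfbr1 and Tgfbr2 above 0, for each class and library, with exact 95% intervals that cover the sampling of cells only. The alveolar macrophage-like classes stand at 58.0% to 77.2%, interstitial macrophage-like cells at 18.1% to 28.2% and the classes outside macrophages and fibroblasts lower.

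By summed adjusted counts Smad7, the feedback inhibitor, lay mainly in lymphocytes and endothelium. Large vessel endothelial-like cells had 755, 866 and 721 adjusted CPM and were above 0 in 79.4%, 87.1% and 80.7% of cells, and general capillary-like cells had 633, 667 and 648. The large vessel cells were the higher in each library, and the ranges did not overlap. Aerocyte-like cells had 599, 326 and 255, with 48 of 54, 111 of 164 and 95 of 174 above 0, so that CONV (88.9%, 77.4% to 95.8%) lay above CONV AsiDNA (67.7%, 60.0% to 74.8%) and FLASH (54.6%, 46.9% to 62.1%). Its log2 ratio over CONV AsiDNA was 0.86. Gpihbp1, a general capillary marker, was above 0 in 53.7%, 16.5% and 17.2% of these aerocyte-like cells. The whole list of 7 general capillary markers summed to 2840, 2145 and 2454 adjusted CPM in them. The part of Gpihbp1 in the Smad7 difference was not tested. T cell-like cells had 322, 279.7 and 306 and B cell-like cells 301, 206 and 239. Lymphocytes held 66.1%, 58.5% and 61.2% of all Smad7 and endothelium 20.9%, 25.3% and 22.7%. Lymphatic endothelial-like cells, with 11, 20 and 26 cells, held 0%, 0.0555% and 0%. The level in alveolar fibroblast-like cells, given below, was above that of B cell-like cells in CONV AsiDNA and FLASH. The macrophages with most Tgfbr1 carried almost none, and the Ear1 and Krt79 cells and those with both sets were listed at 0.

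Thbs1 (chromosome 2, 118111876 to 118127133, plus strand) encodes a secreted glycoprotein that binds matrix and activates latent TGF-β. Smooth muscle or pericyte-like cells had 483 adjusted CPM in CONV against 3888 and 3370. Of their cells 23 of 45, 49 of 57 and 35 of 43 were above 0, which is 51.1% (35.8% to 66.3%), 86.0% (74.2% to 93.7%) and 81.4% (66.6% to 91.6%). Both the level and the share were lowest in CONV. Alveolar fibroblast-like cells had 348, 2415 and 2090, and 10 of 37, 57 of 62 and 90 of 125 cells were above 0. Their shares, 27.03% (13.8% to 44.1%), 91.9% (82.2% to 97.3%) and 72.0% (63.3% to 79.7%), did not overlap between CONV and either other library. Of the CONV sum 58.2% came from 1 cell, and without it the level was 149.8. The smaller fibroblast classes pointed the same way, adventitial-like cells at 239, 1079 and 1392 and other fibroblasts at 248.7, 3706 and 3995, from 12 to 41 cells each.

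Neutrophil-like cells also carried Thbs1 and showed no such gap. They had 1311, 1470 and 1819 adjusted CPM and were above 0 in 47.5%, 47.1% and 50.7% of 265, 308 and 304 cells. Classical monocyte-like cells had 1599, 1567 and 1430 from 14, 55 and 46 cells. T and B cell-like cells were listed at 0 in every library, so these shares stand against none of 3278 T cell-like cells, whose median totals were 3328.5, 3562 and 3506 adjusted counts. Dendritic cells and granulocytes, all of it in neutrophil-like cells, held 43.4%, 28.4% and 35.0% of all Thbs1. Mesenchyme with mesothelium held 11.3%, 41.4% and 43.7%. Ciliated cells held 13.4%, 3.99% and 3.01% and interstitial macrophage-like cells 11.3%, 2.24% and 3.63%, with CONV the highest in both.

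**Figure D4:**
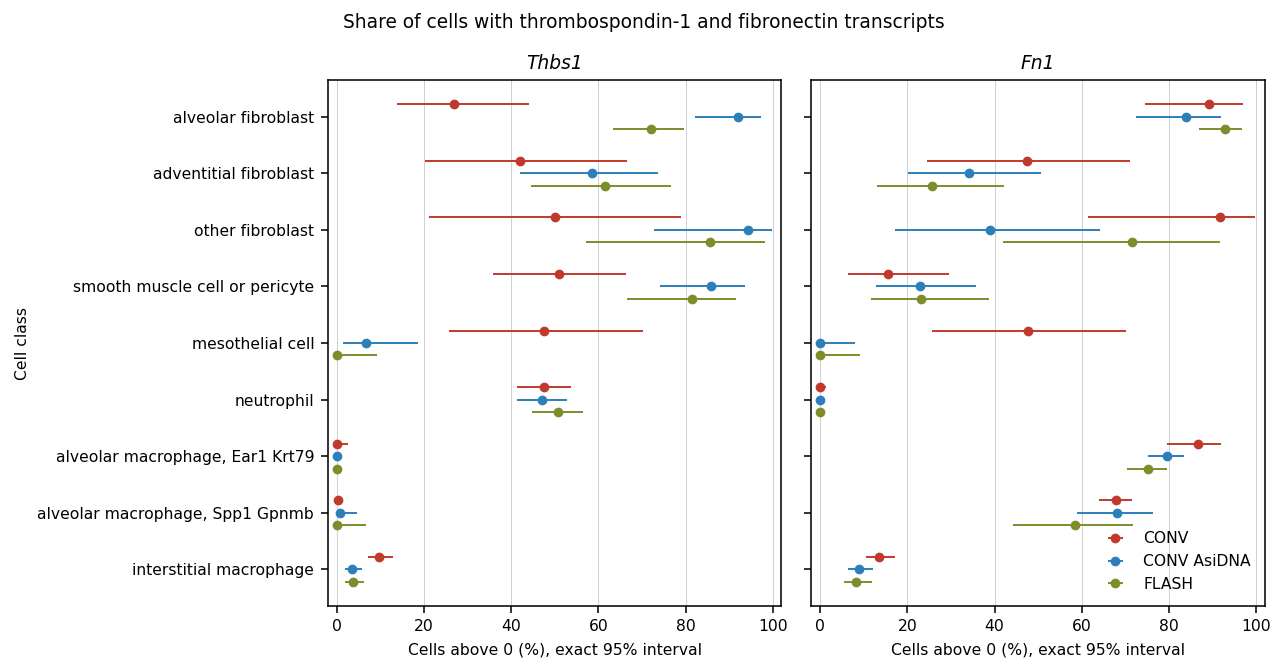
Share of cells in percent with Thbs1 (left) or Fn1 (right) above 0 in 9 classes (rows), by library, with exact 95% intervals. In alveolar fibroblast-like cells Thbs1 stands at 27.03% in CONV against 91.9% and 72.0%, while neutrophil-like cells lie between 47.1% and 50.7%, and Fn1 in mesothelial-like cells is above 0 in CONV only.

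Fn1 (chromosome 1, 71585520 to 71653200, minus strand), the fibronectin of provisional matrix and a classical target of TGF-β, had its highest mean level over the libraries in alveolar fibroblast-like cells. These had 4932, 2460 and 2904 adjusted CPM, with 33 of 37, 52 of 62 and 116 of 125 cells above 0. The share was alike, and the median cell above 0 held 20, 11 and 10 adjusted counts. The log2 ratio of CONV was 1.00 over CONV AsiDNA and 0.76 over FLASH, under the rule for a gap from both. Adventitial fibroblast-like cells had 2619, 403 and 217, but 74.4% of the CONV sum came from 1 of 19 cells and the level without it was 738.

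Most Fn1 nevertheless lay in macrophages and monocytes, which held 81.3%, 87.3% and 74.5% of the sum. The Ear1 and Krt79 alveolar macrophage-like cells had 2658, 1861 and 1617 adjusted CPM (86.6%, 79.6% and 75.2% of cells), the Spp1 and Gpnmb cells 1598, 1817 and 1314, and those with both sets 2045, 2523 and 1935. In CONV AsiDNA the last class was above the alveolar fibroblast-like cells. The ranges overlap, and CONV was the highest library only in the first class. These classes lay in different clusters by library, the Ear1 and Krt79 cells mainly in cluster 1 in CONV (46.3%) and cluster 2 in the others (82.5% and 85.2%), and the Spp1 and Gpnmb cells in cluster 10 in CONV (58.1%) and cluster 1 in the others (46.2% and 41.5%). T cell, B cell and neutrophil-like cells were among the classes listed at 0.

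Interstitial macrophage-like cells had 752, 659 and 777 adjusted CPM of Fn1 from few cells that carried much of it. Only 58 of 429, 38 of 426 and 27 of 324 cells were above 0, and the median of these was 18.5, 23 and 40 adjusted counts. A split of this class by Fn1, made after its values were seen, gave cells with 1238, 1330 and 1057 adjusted CPM of Ccr2, the chemokine receptor of recruited monocytes, where the remaining cells had 175, 366 and 264. F13a1, another marker of the classical monocyte class, went the other way, at 64.4, 293 and 400 against 430, 866 and 1011. C1qa, a complement gene of settled macrophages, was 5634, 6092 and 5653 in the Fn1 cells and 9335, 9538 and 9954 in the rest. Mrc1, a marker of the interstitial macrophage class, was closer, at 930, 1251 and 949 against 1240, 1327 and 1409. Thbs1 also lay with Fn1, at 429, 496 and 1457 against 92.0, 13.4 and 0. The alveolar macrophage gene Marco was above 0 in 1, 3 and 0 of the Fn1 cells. Col1a1 and the classical monocyte markers Ly6c2 and Vcan were above 0 in none of them.

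The design implies CONV against CONV AsiDNA and CONV against FLASH. These share the CONV mouse and are not independent of each other. With 1 mouse per group a rule of size stood in for a test. A gene was called apart in CONV where its level was at least 2-fold from both other libraries in 1 direction, on the scale of log2(adjusted CPM + 10), in classes with at least 20 cells in every library and with at least 20 adjusted counts of the gene in all. Of 154896 pairs of a gene and a class, 2.11% were higher in CONV and 3.62% lower. The 9 genes gave 120 pairs, of which 3 (2.5%) were higher and 12 (10.0%) lower. The share of higher pairs was near that of all genes and the share of lower pairs above it, with no test of the difference. Ligands gave 5 of the lower pairs, receptors 3, and Smad7 and Thbs1 the other 4, and 4 of the 12 lay in smooth muscle or pericyte-like cells.

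**Figure D5:**
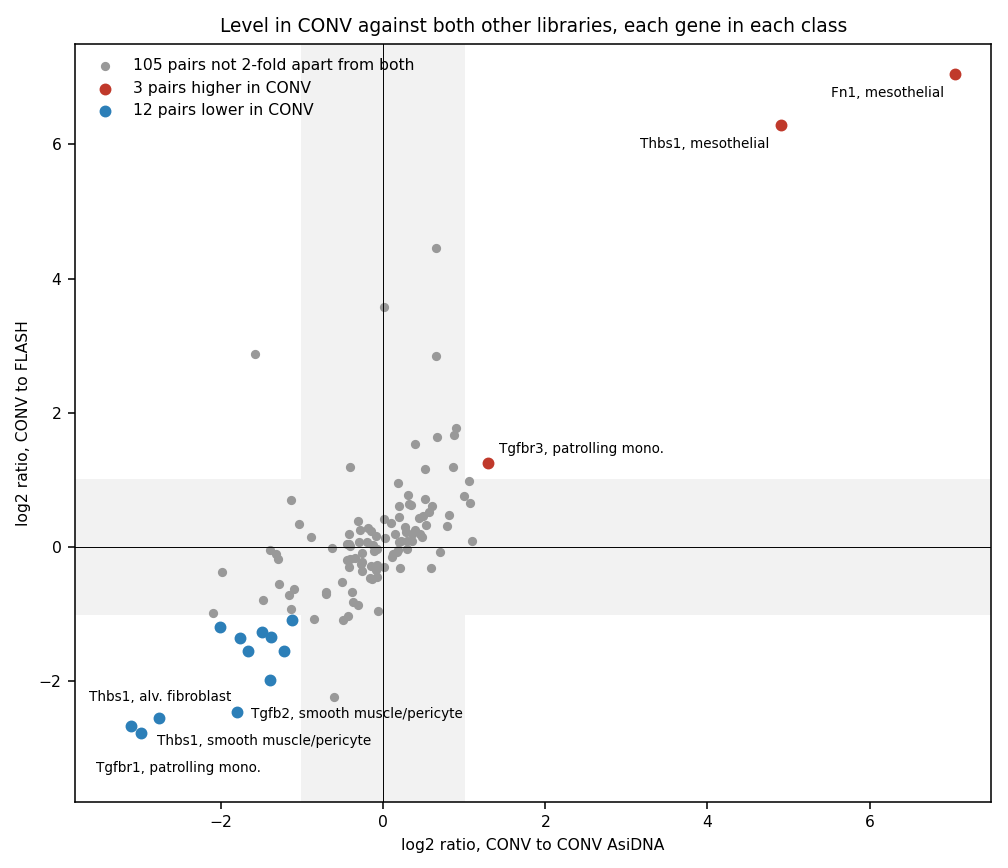
Log2 ratio of CONV to CONV AsiDNA (horizontal) and to FLASH (vertical), on adjusted CPM + 10, for the 120 pairs of a gene and a class, with light bands marking ratios under 2-fold. The 12 blue pairs were at least 2-fold lower in CONV than in both and the 3 red ones at least 2-fold higher, the axes share CONV, and the place of the Fn1 point at upper right is set by the added 10, since the other libraries were listed at 0.

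In smooth muscle or pericyte-like cells, where 3.1% of all 4357 genes were lower and 4.41% higher, 4 of the 8 members measured were lower in CONV. Thbs1 had log2 ratios of -2.98 and -2.78, Tgfb2 of -1.80 and -2.46, Tgfb3 of -1.23 and -1.55, and Smad7 of -1.40 and -1.99. Smad7 was above 0 in 6 of 45, 19 of 57 and 15 of 43 of these cells, and with every cell thinned to 1000 adjusted counts its nearer ratio was -0.35. Tgfb3 fell short of the fold, at -0.92, when classes were taken from clusters. No receptor met the rule. Tgfbr1 was above 0 in 2 of 45, 13 of 57 and 3 of 43 cells, at 11.1, 73.8 and 17.3 adjusted CPM, with CONV the lowest. Tgfbr2 had 155, 99.9 and 197 and Tgfbr3 167, 165 and 208. The class had 45, 57 and 43 cells in 1 cluster, but contractile genes differed too. Cnn1 had 1077, 3727 and 3301, Des 1837, 4774 and 3393 and Actg2 1033, 3180 and 2491, while the defining gene Myh11 had 6090, 4618 and 6734. The airway muscle gene Hhip was above 0 in 1 of 45, 14 of 57 and 8 of 43 cells, and the pericyte gene Cox4i2 in 18, 8 and 15. In cells with Hhip at 0, Thbs1 was 474, 4538 and 3744 and Tgfb2 was 159.8, 679 and 1011. In cells with Cox4i2 above 0 they were 559.5, 3594 and 2624, and 187, 434 and 797. CONV had the lowest level of both genes in these subsets, which were chosen after the values were seen. By share of cells this did not hold for Tgfb2 with Cox4i2 above 0, at 8 of 18, 3 of 8 and 11 of 15 cells. The part of the contractile, airway muscle and pericyte genes in the result was not tested. A pair of heat shock genes summed to 316, 3592 and 2110. Neutrophil markers summed to 0, 586 and 0, and fibroblast lineage markers to 15790, 9248 and 13330. The class's own list of 11 markers summed to 13700, 19630 and 19090. The part of the heat shock genes and of these markers was not tested either.

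In alveolar fibroblast-like cells, where 5.88% of all 5899 genes were lower in CONV and 2.37% higher, Thbs1 was the only member apart, with log2 ratios of -2.76 and -2.55. Smad7 had 133, 306 and 262 adjusted CPM, at log2 ratios of -1.14 and -0.93. Immediate early genes, which rise within minutes of a stimulus or of cell isolation, moved with Thbs1. Summed over 9 of them the level was 5375, 19490 and 18230, and all 9 were at least 2-fold lower in CONV. A heat shock pair summed to 107.6, 475.5 and 355.5, both genes at least 2-fold lower in CONV. In smooth muscle or pericyte-like cells the same sum was 8988, 5573 and 7682, with none of the 9 lower. In alveolar fibroblast-like cells with Fos at 0, Thbs1 stood at 404, 2193 and 1424 from 28, 23 and 40 cells. In those with Fos above 0 it stood at 179, 2541 and 2395 from 9, 39 and 85 cells. CONV was the lowest library on both sides of that split, which was chosen after the values were seen, and the part of the early genes in the result was not tested. With every cell thinned to 1000 adjusted counts, the share of Thbs1 cells was 18.9%, 67.7% and 58.4% here, and 33.3%, 75.4% and 76.7% in smooth muscle or pericyte-like cells. No endothelial lineage marker was above 0 in alveolar fibroblast-like cells, and Ptprc, the marker of blood cells, was above 0 in 0, 1 and 0 cells. Smooth muscle or pericyte markers summed to 1000, 411 and 381 over 11 genes, of which 9, 5 and 9 were above 0, and general capillary markers to 620.5, 366 and 200.1 over 7 genes, of which 3, 3 and 2 were above 0. Both were highest in CONV, and their part was not tested.

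Mesothelial-like cells went the other way, with 7.59% of 3991 genes higher in CONV and 13.6% lower. Thbs1 had 774, 16.2 and 0 adjusted CPM, with 10 of 21, 3 of 44 and 0 of 38 cells above 0. Fn1 had 1323 in CONV, again in 10 of 21 cells, and was listed at 0 in the 44 and 38 cells of the others. Other matrix genes moved with them. Col1a2 had 5770, 373 and 725 and Col1a1 1832, 64.9 and 242, and the fibroblast receptor gene Pdgfra was above 0 in 8 of 21, 0 of 44 and 0 of 38 cells. Of the mesothelial markers, Upk3b (21 of 21 cells) and Wt1 (19 of 21) were found in most CONV cells, while Upk3b and Msln had lower levels there, at 1489, 3185 and 3549 and at 1519, 3623 and 3687. The list of 7 summed to 7534, 13220 and 15340. Krt8, a keratin of simple epithelia, was above 0 in 0 of 21, 28 of 44 and 21 of 38 cells, and Igfbp5 in 9, 43 and 38. Of the 10 CONV cells with Fn1, all had Upk3b, Wt1, Col1a1 and Col1a2, 7 had Pdgfra and 6 had Thbs1. Fibroblast lineage markers summed to 18930, 11760 and 14970 over 8 genes, of which 6, 4 and 4 were above 0. The part of the fibroblast markers in the result was not tested, and it rests on 21 cells of 1 mouse.

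In endothelium the members apart were Tgfb1, in 3 classes, and Tgfbr1, in 1. For Tgfb1, aerocyte-like cells had 89.1, 306 and 280.3 adjusted CPM with 15 of 54, 107 of 164 and 110 of 174 above 0, and the share in CONV (27.8%, 16.5% to 41.6%) lay below both others (65.2%, 57.4% to 72.5%, and 63.2%, 55.6% to 70.4%). The log2 ratios were -1.67 and -1.55, where 4.1% of all genes of the class were lower. Large vessel endothelial-like cells and other endothelial cells were also lower in CONV, with the nearer log2 ratio at -1.26 and -1.09, where 5.28% and 5.26% of genes were lower. For other endothelial cells, whose main cluster differed between CONV and the others, the clusters gave different values. Over all cells of cluster 44 Tgfb1 was 127.6, 110.9 and 123.6, and over cluster 29, with 1 cell in FLASH, it was 82.4 in the 134 CONV cells and 252.0 in the 23 of CONV AsiDNA. General capillary-like cells did not differ in this way, at 119.7, 146 and 128. Gpihbp1, a general capillary marker, had 732, 86.8 and 61.1 in the aerocyte-like cells, and Ednrb had 693, 1626 and 1746. The whole list of 7 general capillary markers summed to 2840, 2145 and 2454 there, of which 6, 5 and 5 were above 0. The 7 aerocyte markers summed to 6723, 10570 and 10930. In aerocyte-like cells with Gpihbp1 at 0, a split chosen after the values were seen, Tgfb1 was 78.6, 317 and 274, and the part of the capillary markers in the result was not tested. Tgfbr1 met the rule in aerocyte-like cells, with 0 of 54, 13 of 164 and 10 of 174 cells above 0. Neutrophil markers summed to 0, 4361 and 0 in large vessel endothelial-like cells and to 4.18, 1888 and 0 in other endothelial cells. In the latter, general capillary markers summed to 3581, 7430 and 6202, and lymphatic markers to 869, 2902 and 4202. The part of these markers was not tested. Thinning took the nearer ratio to -0.33 for Tgfb1 in other endothelial cells and to -0.66 for Tgfbr1 in aerocyte-like cells, and clusters took Tgfb1 in large vessel cells to -0.72.

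Patrolling monocyte-like cells had Tgfbr1 above 0 in 1 of 45 cells in CONV, 94 of 256 in CONV AsiDNA and 97 of 352 in FLASH, at 6.44, 132 and 94.3 adjusted CPM. The share of 2.22% (0.0563% to 11.8%) lay below both others, 36.7% (30.8% to 43.0%) and 27.6% (22.9% to 32.5%). Thinned to 1000 adjusted counts per cell, the shares were 2.22% (0.0563% to 11.8%), 12.9% (9.04% to 17.6%) and 6.82% (4.42% to 9.98%), with overlapping intervals, and the nearer log2 ratio was -1.33. In this class 8.36% of genes were lower and 3.06% higher. Tgfbr3 had 180.3, 68.0 and 69.7 and was higher in CONV, with 16 of 45, 54 of 256 and 76 of 352 cells above 0, overlapping intervals and a ratio of 0.58 after thinning. Tgfb1 in the same cells was 425, 543 and 479.7. Lyz2, a gene of monocytes and macrophages, was above 0 in 35.6%, 84.0% and 89.2% of the cells, while Treml4 (86.7%, 84.8% and 89.2%) and Ace (93.3%, 91.8% and 96.9%) were alike. In cells with Lyz2 above 0, Tgfbr1 was found in 0 of 16, 86 of 215 and 85 of 314, a split chosen after the values were seen. Cdh5, Cd79a and Cd3e, markers of endothelial, B and T cells, were at 0, but their lists were not all at 0. Endothelial lineage markers summed to 148, 151 and 154 adjusted CPM, with 1 gene above 0 in each library. B cell markers summed to 0, 18.5 and 22.2, T cell markers to 0, 0 and 2.30, and general capillary markers to 258, 532 and 433. Neutrophil markers summed to 283, 2293 and 3260 adjusted CPM over 7 genes, of which 3, 6 and 3 were above 0, and the Spp1 and Gpnmb macrophage markers to 1842, 661 and 572 over 8 genes, of which 1, 2 and 2 were above 0. The part of these markers and of Lyz2 in the result was not tested.

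AT1-like cells had lower Tgfbr2 in CONV, at 84.1, 235 and 228 adjusted CPM and 19.8%, 40.6% and 36.5% of cells, with overlapping intervals, where 4.98% of genes were lower. Thbs1 was also lower, in 5 of 96, 9 of 64 and 13 of 115 cells, and this pair turned to a log2 ratio of 0.57 when classes were taken from clusters. AT1 markers summed to 23630, 39050 and 39120 adjusted CPM, AT2 markers to 1300, 1098 and 117, club cell markers to 6841, 13250 and 0, and the Spp1 and Gpnmb macrophage markers to 73.6, 1055 and 368. Immediate early genes summed to 4787, 1688 and 1182 over 9 genes, and the median total per cell was 2467.5, 3214.5 and 3118 adjusted counts. Their part was not tested. In AT1-like cells with Lamp3, an AT2 gene, at 0, Tgfbr2 was 93.6, 235 and 228.

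Another 36 genes of the pathway, listed by their textbook roles, gave 415 pairs, of which 22 (5.3%) were higher in CONV and 27 (6.51%) lower, beside 2.11% and 3.62% of all pairs. Of the latency and activation genes 7 of 101 pairs were higher and 10 lower. Receptor partners had 1 and 3 of 76, transducers and inhibitors 9 and 7 of 189, and response genes 5 and 7 of 49. The directions were mixed in every role. In alveolar fibroblast-like cells, Ltbp2, a latent TGF-β binding protein relative of elastic fibres, was above 0 in 28 of 37, 15 of 62 and 20 of 125 cells, at 981, 117 and 109 adjusted CPM. Skil, an inhibitor of Smad signalling, had 38.0, 121 and 111. Acta2 of myofibroblasts had 1507, 139.6 and 243, but 96.6% of the CONV sum was in 1 of 37 cells and the level without it was 52.1.

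In smooth muscle or pericyte-like cells, Ccn2, the connective tissue growth factor, had 1965, 4509 and 4914 adjusted CPM, lower in CONV like Thbs1. In patrolling monocyte-like cells, Tgfbi, a secreted protein named for its induction by TGF-β, had 90.2, 236 and 268, and Itgb5 and Smurf1 were listed at 0 in CONV, at 93.7 and 75.1 and at 16.5 and 14.6 in the others. In large vessel endothelial-like cells, Smurf2, a ubiquitin ligase that partners Smad7, had 76.3, 232 and 225. Of the 19 genes of the list measured in the Ear1 and Krt79 alveolar macrophage-like cells, none was apart. In that class 1.24% of all 8449 genes were higher in CONV and 1.94% lower, so none of 19 is near that share. The highest mean level over the libraries in each role was that of Furin, which cleaves the TGF-β precursor, in mast cell or basophil-like cells (1257, 4475 and 1887), Fkbp1a, which binds the type I receptor, in aerocyte-like cells (1657, 2573 and 2275), Smad6 in large vessel endothelial-like cells (717, 735 and 976) and Acta2 in smooth muscle or pericyte-like cells (17710, 27440 and 27740).

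The pattern of each member was set beside 8087 genes over the 81 profiles of a class in a library, as a description. The profiles of a class share its cell type, so they are not independent. The gene most alike by Pearson correlation was Casp8 for Tgfb1 (0.84), Cavin3 for Tgfb2 (0.90), Osr1 for Tgfb3 (0.92), Lipa for Tgfbr1 (0.82), Lgals8 for Tgfbr2 (0.81), Mpdz for Tgfbr3 (0.90), Ablim1 for Smad7 (0.84), Fam114a1 for Thbs1 (0.69) and Cd302 for Fn1 (0.87). Next came Ppp1r18 and Arpc4 for Tgfb1, Cavin1 and Fbxl7 for Tgfb2, Rcn3 and Loxl2 for Tgfb3, Myo5a and Axl for Tgfbr1, Serinc1 and Ctso for Tgfbr2, Abi3bp and Grb10 for Tgfbr3, Gbp4 and Zeb1 for Smad7, Crispld2 and Tnfaip6 for Thbs1, and Lrp1 and Abcd2 for Fn1. Thbs1 was the member least like any other gene. Among the members, Tgfbr1 and Fn1 were the most alike pair (0.75), followed by Tgfb2 and Tgfbr3 (0.70) and Tgfb2 and Tgfb3 (0.66), and Tgfb1 and Tgfb3 ran most against each other (-0.48).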

How the data were processed

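Single-cell 3′ libraries of 3 lungs were analysed, 1 per group. The labels' processing notes name Cell Ranger 6.0.0 and mm10, and the paper names R and Seurat. The authors deposited values on a natural log scale. With the log undone and 1 subtracted, every value lay within 1e-06 of a whole number, called an adjusted count. Totals per cell ran from 1432 to 8462. No source used here names the adjusting step, and no count model was used. Another 12 columns in 4 tables, which hold the authors' own fold changes and counts of another experiment, were not used.

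Cells with at least 200 genes above 0 and at most 20% mitochondrial share were kept. A cell took a class with at least 3 markers and 40% of a class's markers above 0 and a lead of 10 percentage points. Cells that met more than 1 class (189) or none (764) were left out of the classes, and no doublet caller was run. Barcodes shared by a pair of libraries numbered 9 to 17. Clusters (Leiden, scanpy 1.11.5, resolution 2) served as an alternative. Log2 ratios used adjusted CPM plus 10. Gene positions are from GENCODE M21 on GRCm38. Named genes were all members, genes of the pathway list past the size rule in the classes where a member is highest, the highest gene of each role, and the 3 genes most like each member. An item of the pathway list that met this rule is counted but not reported here by name. Members, markers and lists were chosen with earlier results of these data known. Splits of a class by Fos, Fn1, Hhip, Cox4i2, Gpihbp1, Lyz2 or Lamp3 were chosen after seeing the data.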

Additional observations from a re-analysis of the deposited data

How the results depend on the processing

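No paired analysis was possible because each group is 1 library. For the same reason no replicate could be left out. The 12 lower and 3 higher pairs were recomputed under 12 alternatives, 2 of which, the single cluster per class and the scaling to the median gene, were chosen after seeing the data. Lower pairs numbered 21 at a fold of 1.5 and 4 in classes of at least 50 cells, where 66 pairs were tested. Higher pairs numbered 13 at a fold of 1.5, 0 in classes of at least 50 cells, 8 with no minimum sum, 1 after thinning to 1000 adjusted counts and 5 within 1 cluster per class. The last 3 settings tested 162, 85 and 103 pairs. The share of all genes past the rule is not given for the alternatives. These counts of lower and higher pairs therefore cannot be set beside a background, and nothing is concluded from them. Thbs1 in AT1-like cells turned to 0.57 with Leiden clusters. Thbs1 in alveolar fibroblast-like cells (-2.78 to -2.42), in smooth muscle or pericyte-like cells (-2.91 to -2.66) and in mesothelial-like cells (3.80 to 5.49), Fn1 in mesothelial-like cells, Tgfb2 in smooth muscle or pericyte-like cells (-1.998 to -1.46), Tgfb1 in aerocyte-like cells (-1.64 to -1.36), Tgfbr1 in patrolling monocyte-like cells (-3.68 to -1.33) and Tgfbr2 in AT1-like cells kept their side of the fold in every alternative that gave a value. Thinning left Smad7 in smooth muscle or pericyte-like cells at -0.35, Tgfb1 in other endothelial cells at -0.33, Tgfbr1 in aerocyte-like cells at -0.66 and Tgfbr3 in patrolling monocyte-like cells at 0.58. Leiden clusters left Tgfb3 in smooth muscle or pericyte-like cells at -0.92 and Tgfb1 in large vessel endothelium at -0.72 (-0.77 within 1 cluster per class), and Tgfbr3 in patrolling monocyte-like cells just under the fold. The cause was not tested. The class with the highest level, recomputed under 8 of these alternatives, was the same for 7 of the 9 members with Leiden clusters, 6 with the mean per cell (not Tgfb1, Tgfb2 or Tgfbr1), 8 with 1 cluster per class, 8 with scaling to the median gene and 9 under the other 4. It was not recomputed with classes of at least 50 cells. The median log2 ratio of all genes differed from 0 by over 0.1 in some classes, at most 0.24 in mast cell or basophil-like cells. Depth here is that of adjusted counts, and the original depth per cell was not used.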

Other observations

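Pmepa1, a membrane protein that is induced by TGF-β and limits its signal, had 61.5, 19.0 and 13.5 adjusted CPM in T cell-like cells, in the same order of libraries, and was above 0 in 163 of 1212, 39 of 927 and 33 of 1139 cells. B cell-like cells had it above 0 in 79 of 1327, 3 of 1593 and 0 of 1154 cells, where 45.7% of the cells lay in cluster 23 in CONV, and cluster 25 held the largest share in CONV AsiDNA (43.4%) and FLASH (45.8%). In group 2 innate lymphoid-like cells it was above 0 in 12 of 114, 4 of 104 and 0 of 49. AT1-like cells were also higher in CONV, at 73.6, 28.8 and 5.84 adjusted CPM. Natural killer-like cells had it above 0 in 0 of 70, 0 of 282 and 1 of 215. These genes were chosen after their values were seen.

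Other genes of the list were higher in CONV in T cell-like cells taken as 1 class. Itgav, the integrin subunit that binds the latent complex, had 81.1, 25.5 and 27.5 adjusted CPM there, and 151, 67.5 and 54.1 in group 2 innate lymphoid-like cells. Furin had 191, 75.9 and 68.2 in T cell-like cells, and Smurf2 was above 0 in 131 of 1212, 38 of 927 and 42 of 1139 of them. Of 17 pathway genes measured in T cell-like cells 4 were at least 2-fold higher in CONV than in both others and none lower, where 0.456% of all 9864 genes of the class were higher and 0.365% lower. The members did not follow. Smad7 in T cell-like cells was 322, 279.7 and 306, and none of the 4 members measured there was apart. The T cell-like class pools several clusters whose sizes differed by library. Cluster 9, with Foxp3 and Ctla4 among its leading genes, held 361, 193 and 242 cells. Cluster 3, with Lef1 and Cd8b1 among them, held 165, 137 and 269. The part of this mix in the values of Pmepa1, Itgav, Furin and Smurf2 was not tested. Each library is 1 mouse, and these differences were not tested.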
